A study of Mus musculus with 63 samples.

Results

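Cytosolic ribosomal protein genes were described in single helper innate lymphoid progenitors of mouse bone marrow, comparing wild-type cells with cells of the same phenotype regenerated from pluripotent stem cells. Members were chosen by name: symbols of the form Rpl or Rps followed by a number, together with Rpsa, Rplp0, Rplp1 and Rplp2, without pseudogene symbols (ending in -ps and a number) and without the Rps6k kinases. The rule took 86 of the 23420 rows of the table. Of these, 46 encode proteins of the large subunit and 31 proteins of the small subunit, which are called the 77 subunit genes below. A further 8 are paralogs of subunit genes, namely Rpl3l, Rpl7l1, Rpl10l, Rpl22l1, Rpl36al, Rpl39l, Rps27l and Rps4y2. The remaining member, Rps19bp1, encodes a binding partner of Rps19 that is not a subunit and was matched by its name alone.

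Both groups were C57BL/6 cells sorted as CD45.2+ Lin- CD127+ CD135- α4β7+ with Sca1 mid or negative and CD25-, the phenotype of the common helper innate lymphoid progenitor (CHILP). The WT group held 29 such cells. The iR9 group carried GFP in addition and, going by the title of the series, came from pluripotent stem cells. These cells were sorted from the marrow of Rag2-/-Il2rg-/- recipients, hosts that lack T, B and natural killer cells, 4 weeks after transplantation. The labels name no animal, culture or age and do not spell out iR9. Each group was therefore treated as 1 sample of many cells, and the values below are descriptions with their spread over cells, with no test between the groups.

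The 63 libraries comprised 29 WT and 34 iR9 libraries. Every WT title ended in the suffix 1, and the iR9 titles ended in 1, 2 or 3. For 15 cell numbers, iR9 libraries of suffixes 2 and 3 correlated at r of at least 0.974 over genes, while the 225 different-number pairs reached at most 0.411, so the libraries of a pair were averaged and counted as 1 cell. This left 19 iR9 cells, 3 of them of suffix 1. The other 16 had suffixes that no WT cell had, so for them group and suffix cannot be told apart. Values were TPM, transcript abundance per length with an equal total for every library, which keeps no record of depth, and a value of 0 means that a gene was listed at 0. A gene is called detected in a cell below where its TPM was 1 or more. WT cells had 2938 detected genes (median, range 1189 to 5939) and iR9 cells 1732 (1514 to 3238). The iR9 cells of suffix 1 had 2093 to 3238 detected genes and the other iR9 cells 1514 to 2174. Of 10 markers of helper innate lymphoid progenitors, WT cells held a median of 7 above 10 TPM (range 1 to 10) and iR9 cells 4 (range 1 to 9). The iR9 cell 12 of suffix 1 stood apart, with 9 of 10 mast cell markers, which summed to 243422 TPM. WT cells 26 and 21 held 4 and 3 of 10 myeloid markers, which summed to 136884 and 41739 TPM, and 1 of 10 progenitor markers each. In all, 6 WT and 2 iR9 cells held at least 3 myeloid or mast cell markers.

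Ribosomal proteins assemble with ribosomal RNA in the nucleolus into a large and a small subunit, and each mature ribosome carries a single copy of nearly every subunit protein. Many of their mRNAs start with a cytosine and a run of pyrimidines, the terminal oligopyrimidine (TOP) motif, through which their translation responds to mTOR signalling. Some subunit genes have a paralog whose product can take the same place in the ribosome. In lymphocyte development, Rpl22 and its paralog Rpl22l1 are known for roles in T cell progenitors that differ between them.

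The start sites of 6 members are shown because the TOP motif is the sequence feature that these mRNAs are best known to share. Each window runs from 25 bases before to 15 bases from the RefSeq start on GRCm38.p6, 5′ to 3′ on the gene's strand. Capitals mark a C followed by at least 4 C or T that begins within 5 bases of that start, and Rpl22 had no match. The Rpl22 window ends before the start that GENCODE M21 gives for this gene (chr4:152325742). For Rpl22l1, Rpl35 and Rps18 the whole window lies downstream of the outermost GENCODE M21 start (chr3:28805436, chr2:39005624 and chr17:33956001).
Rpl22, chr4:152325701-152325740, plus strand: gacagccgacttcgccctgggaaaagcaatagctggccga
Rpl22l1, chr3:28805483-28805522, plus strand: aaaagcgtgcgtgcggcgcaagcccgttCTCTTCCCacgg
Rps27, chr3:90213634-90213673, minus strand: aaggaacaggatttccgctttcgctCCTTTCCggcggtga
Rps27l, chr9:66946061-66946100, plus strand: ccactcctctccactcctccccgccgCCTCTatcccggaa
Rpl35, chr2:39005117-39005156, minus strand: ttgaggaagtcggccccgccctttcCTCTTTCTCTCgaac
Rps18, chr17:33955651-33955690, minus strand: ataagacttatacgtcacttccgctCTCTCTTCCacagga

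RefSeq windows were matched for 65 members. The pattern was searched on the gene's own strand only. It was present in 26 of the 57 subunit genes with a window (45.6%), against 18.5% of 27025 genes of the annotation. Subunit genes with and without the pattern had nearly the same difference between iR9 and WT cells, with medians of -1.15 and -1.21 on the log2(TPM + 1) scale. A match describes the letters near an annotated start, and an absent match says only that the letters are not in this window.

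Ribosomal protein transcripts made up a median of 8.08% of the TPM of a WT cell (range 4.16 to 13.8%, mean 8.80 ± 2.93 SD, n = 29 cells) and 6.22% of that of an iR9 cell (range 1.62 to 14.5%, mean 6.67 ± 2.78 SD, n = 19 cells). The groups overlapped over most of their range. Of the iR9 cells, 13 of 19 lay below the WT median. More than 10% was reached by 10 WT cells and by 1 iR9 cell, cell 12 of suffixes 2 and 3, which had the highest share of all 48 cells. The lowest shares were those of the suffix 1 cells 12 (1.62%) and 14 (3.58%), both below the lowest WT cell. The difference of medians, -1.85 percentage points, was smaller than the SD over cells. It also moved with the cells used: it was -0.92 among the 16 WT and 19 iR9 cells with 1514 to 3238 genes, and -3.07 without the 8 cells that held at least 3 myeloid or mast cell markers. With iR9 libraries of suffix 2, 3 or 1 alone it was -0.57, -1.13 and -4.50, and without cell 12 of suffix 1 the last was -3.15. The range of 1514 to 3238 genes held every iR9 cell and left out WT cells only, so it did not equalize gene numbers. Most WT cells in it had more genes than the iR9 median of 1732, for example 3145 in WT cell 17.

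**Figure D1:**
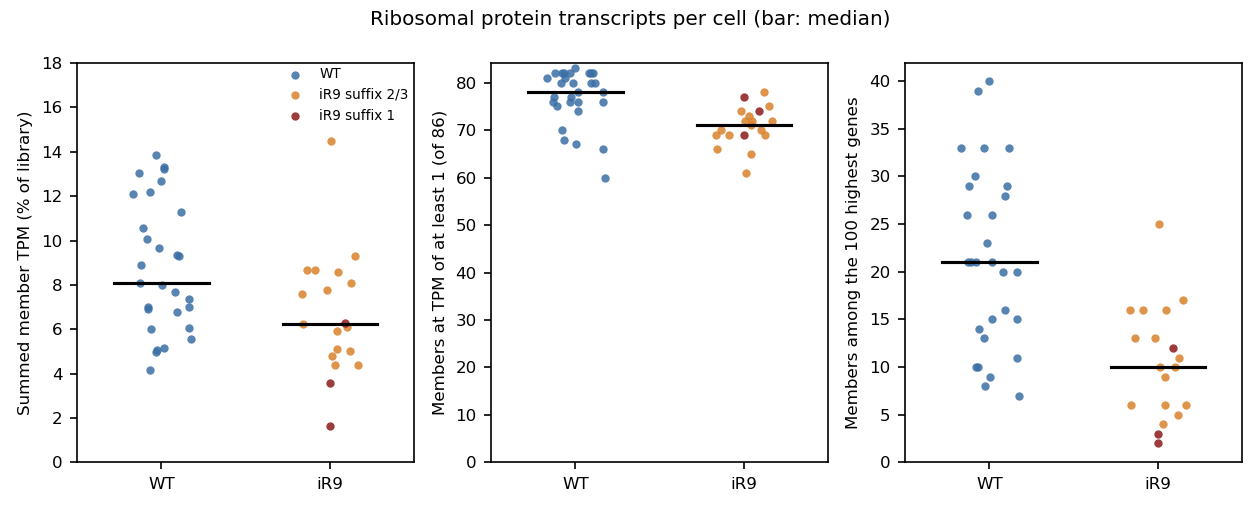
Each point is 1 cell and bars are medians. The left panel gives the summed TPM of the 86 members as a percentage of the library (medians 8.08% in WT and 6.22% in iR9), the middle panel the members detected (78 and 71), and the right panel the members among the 100 highest genes of the cell (21 and 10). The groups overlap in all 3 panels.

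The shares of same-number libraries differed little beside this spread. The labels do not explain the suffixes, so which steps the libraries of a pair share is not known. Any error from shared steps would not show within a pair, and its part in the spread over cells was not tested. Within the 15 same-number pairs, the library of suffix 3 had the higher share each time, by a median of 0.167 percentage points and at most 0.309, against an SD of 2.60 over the same cells. Member values within a pair differed by a median of 0.075 in log2(TPM + 1), and 7.75% of 1290 values differed by more than 1.

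Fewer members were detected in iR9 cells. WT cells had a median of 78 of 86 members (range 60 to 83), and iR9 cells had 71 (range 61 to 78). With a threshold of 10 TPM these medians were 78 and 65. At least 80 members were detected in 14 of 29 WT cells, a number that none of the 19 iR9 cells reached. Members also held fewer of the top positions: of the 100 highest genes of a cell, a median of 21 were members in WT cells (range 7 to 40) and 10 in iR9 cells (range 2 to 25). The number of genes detected of any kind was lower in iR9 cells too, and its part in these counts was not tested. In the cells with 1514 to 3238 genes, the medians were 76 and 71 members, with many WT cells still above most iR9 cells in gene number. The iR9 cells of suffix 2 or 3, with 1514 to 2174 genes, had a median of 70.5 members (range 61 to 78). The WT cells within that narrower range, cells 3, 4, 12, 26 and 27, had 70, 60, 66, 76 and 75 members, so no clear difference was seen there. The suffix 1 cells had a median of 74, and of 75.5 without cell 12. Detection also varied with the library: in each same-number pair, suffix 3 had as many members detected as suffix 2 or more. The counts were 67 (suffix 2) and 75 (suffix 3) in cell 6, and 70 in both in cell 8. Most iR9 cells are averages of 2 libraries and each WT cell is 1 library, and the part of this in the counts was not tested. Across cells, the number of members detected correlated with the number of genes detected at r = 0.75 in WT (n = 29) and 0.36 in iR9 cells (n = 19), with both counts taken from the same library.

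Transcript levels of the subunit genes within a cell were less even in iR9 cells. The SD of log2(TPM + 1) over the 77 subunit genes had a median of 2.04 in WT cells (range 1.16 to 4.44) and of 3.58 in iR9 cells (range 2.29 to 4.21). Cells with few genes had the larger SD in both groups, with r = -0.83 in WT (n = 29) and -0.63 in iR9 cells (n = 19). The WT cells with the fewest genes had subunit genes listed at or near 0 much as iR9 cells did.

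**Figure D2:**
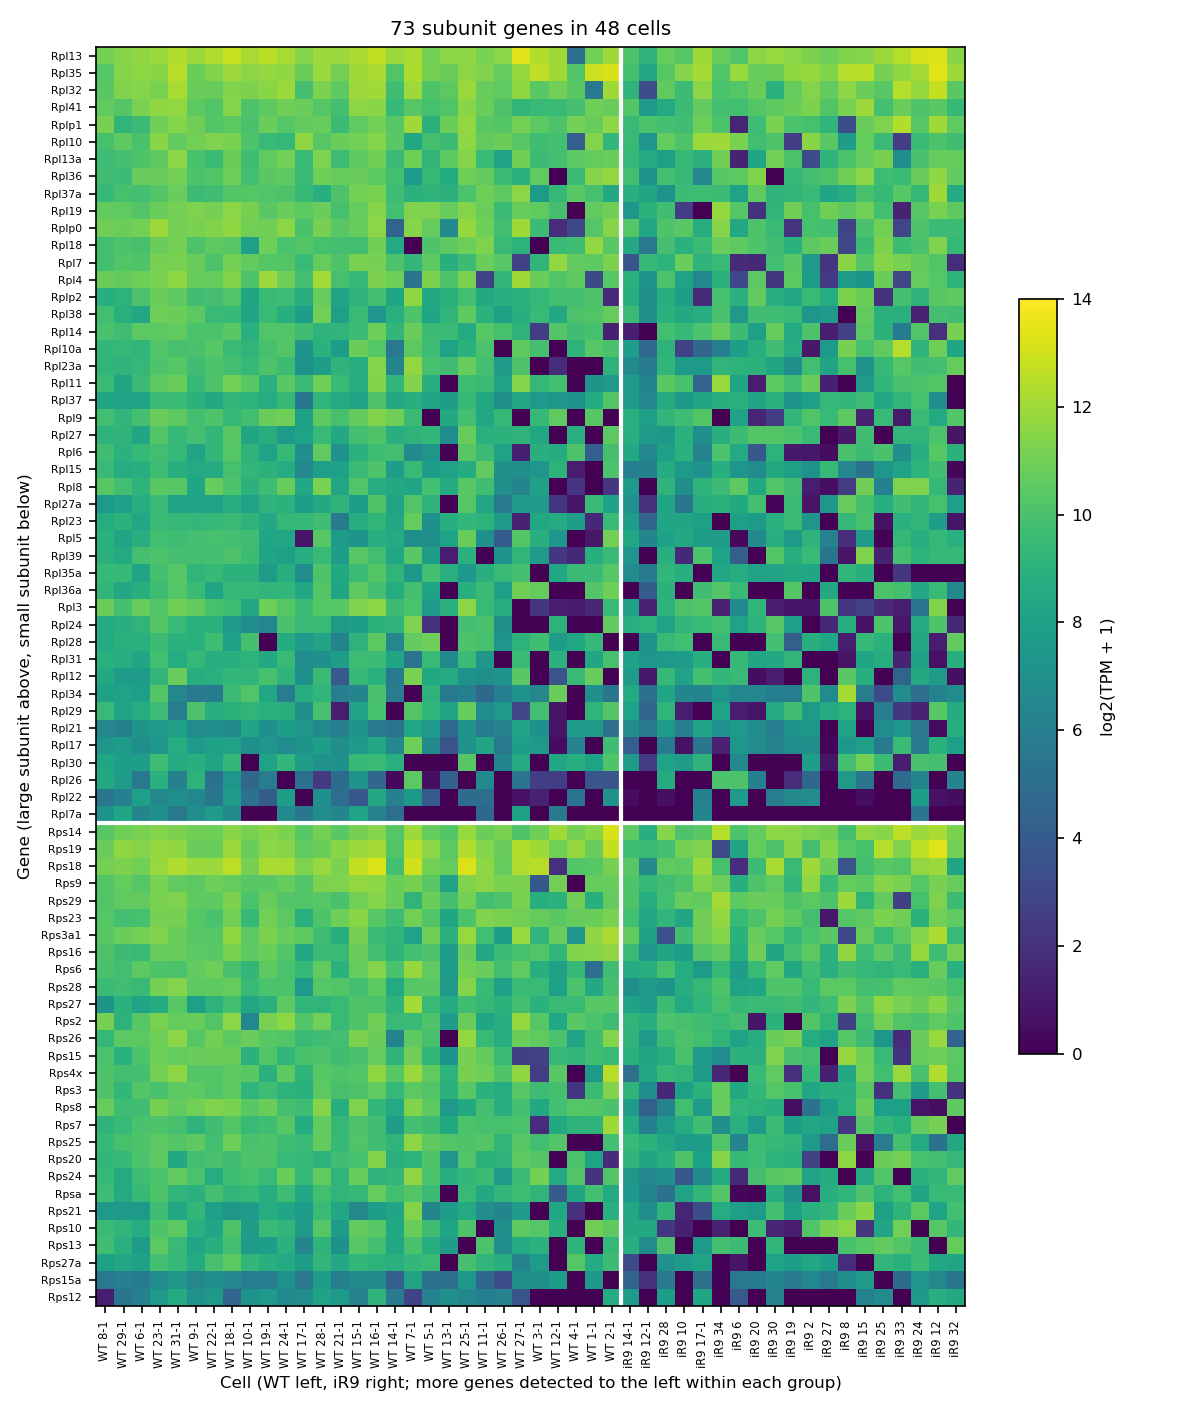
Colour gives log2(TPM + 1) of 73 subunit genes (rows, large subunit above the white line) in 48 cells (columns, WT left of the white line), with cells ordered by genes detected within each group and the most on the left. Dark squares, genes at or near 0, gather in the iR9 cells and in the WT cells with few genes, while the uppermost genes of each subunit, such as Rpl13 and Rps14, stay bright in nearly every cell.

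Both subunits were represented alike. Large subunit members with their paralogs made up a median of 54.6% of the summed subunit and paralog TPM in WT cells (range 42.3 to 66.2%) and 53.8% in iR9 cells (range 48.2 to 65.2%). Between 50 and 60% was found in 24 of 29 WT and 15 of 19 iR9 cells. The difference of -0.76 points turned to 0.27 among cells with 1514 to 3238 genes. It was -3.91 with the suffix 1 cells alone and -2.09 without cell 12 of these. Across cells the shares of the large and small subunit went together, with r of their log2 values of 0.89 in WT (n = 29) and 0.93 in iR9 cells (n = 19), both parts being scaled to the same library total. Per gene, small subunit transcripts were the more abundant: the median TPM of the small subunit genes of a cell was 1112 (WT) and 688.9 (iR9), and that of the large subunit genes was 686.2 and 440.9 (medians over cells).

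**Figure D3:**
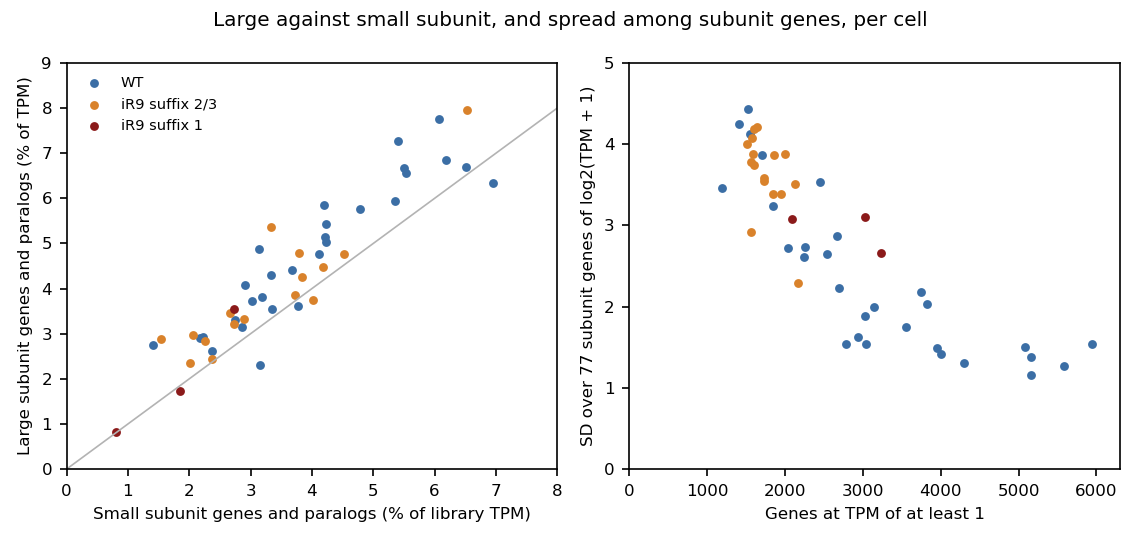
Each point is 1 cell. The left panel plots large against small subunit members with their paralogs, as a percentage of library TPM, beside the line of equal shares: most cells of both groups lie just above it. The right panel plots the SD of log2(TPM + 1) over 77 subunit genes against the number of genes detected, and cells with few genes have the larger SD in both groups.

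For each gene, the difference was the mean of log2(TPM + 1) over iR9 cells minus that over WT cells, over the 7421 genes that were detected in 10% or more of all cells. Of the members, 83 met this, and Rpl3l, Rpl10l and Rpl39l were listed at 0 in every cell. The difference was negative for 76 of 83 members (91.6%), beside 81.4% of all genes, and positive for Rpl23a, Rpl7l1, Rps9, Rps21, Rps27, Rps27l and Rps4y2. It was -1 or less for 46 members (55.4%), beside 44.5% of all genes, and 1 or more for 1 member, Rps27l, beside 5.15% of all genes. The share of members is thus not far from that of all genes. The members' median difference was -1.08 and that of all genes -0.88. Of the genes detected in 50% or more of all cells, 44 of 80 members differed by -1 or less, beside 47.4% of all genes. With the 3 iR9 cells of suffix 1 alone, 55 of 83 members did so, beside 39.3% of all genes. Without cell 12 of that suffix 31 of 83 did, beside 44.0% of the 7644 genes that passed the filter in the cells used.

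The measure used decided whether members or all genes had the lower median. With quantile normalization the medians were -0.86 for members and -0.13 for all genes. With the log2 ratio of mean TPM in place of the mean of logs, which gives listed zeros less weight, they were -0.36 and -0.56, and 12 of 83 members were at -1 or less, beside 40.9% of all genes. In cells with 1514 to 3238 genes they were -0.73 and -0.43. There, 34 of 82 members were at -1 or less, beside 30.9% of the 5729 genes that passed the filter in these cells. In the iR9 cells of suffix 1 without cell 12 they were -0.62 and -0.85. Over the cells in which a gene was detected, the level of the subunit genes differed by a median of -0.67, and that of 6449 genes by 0.26. The percentage of cells with the gene detected was lower in iR9 cells for 42 subunit genes, higher for 11 and equal for 24.

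The order of abundance among subunit genes was similar in both groups, with r = 0.88 and rho = 0.86 between their mean log2(TPM + 1) in WT and iR9 cells (n = 77 genes). By subunit, the difference was negative for 45 of 46 large subunit members (median -1.14, 25 at -1 or less) and for 28 of 31 small subunit members (median -1.08, 18 at -1 or less), which is 97.8% and 90.3%, beside the 81.4% of all genes.

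**Figure D4:**
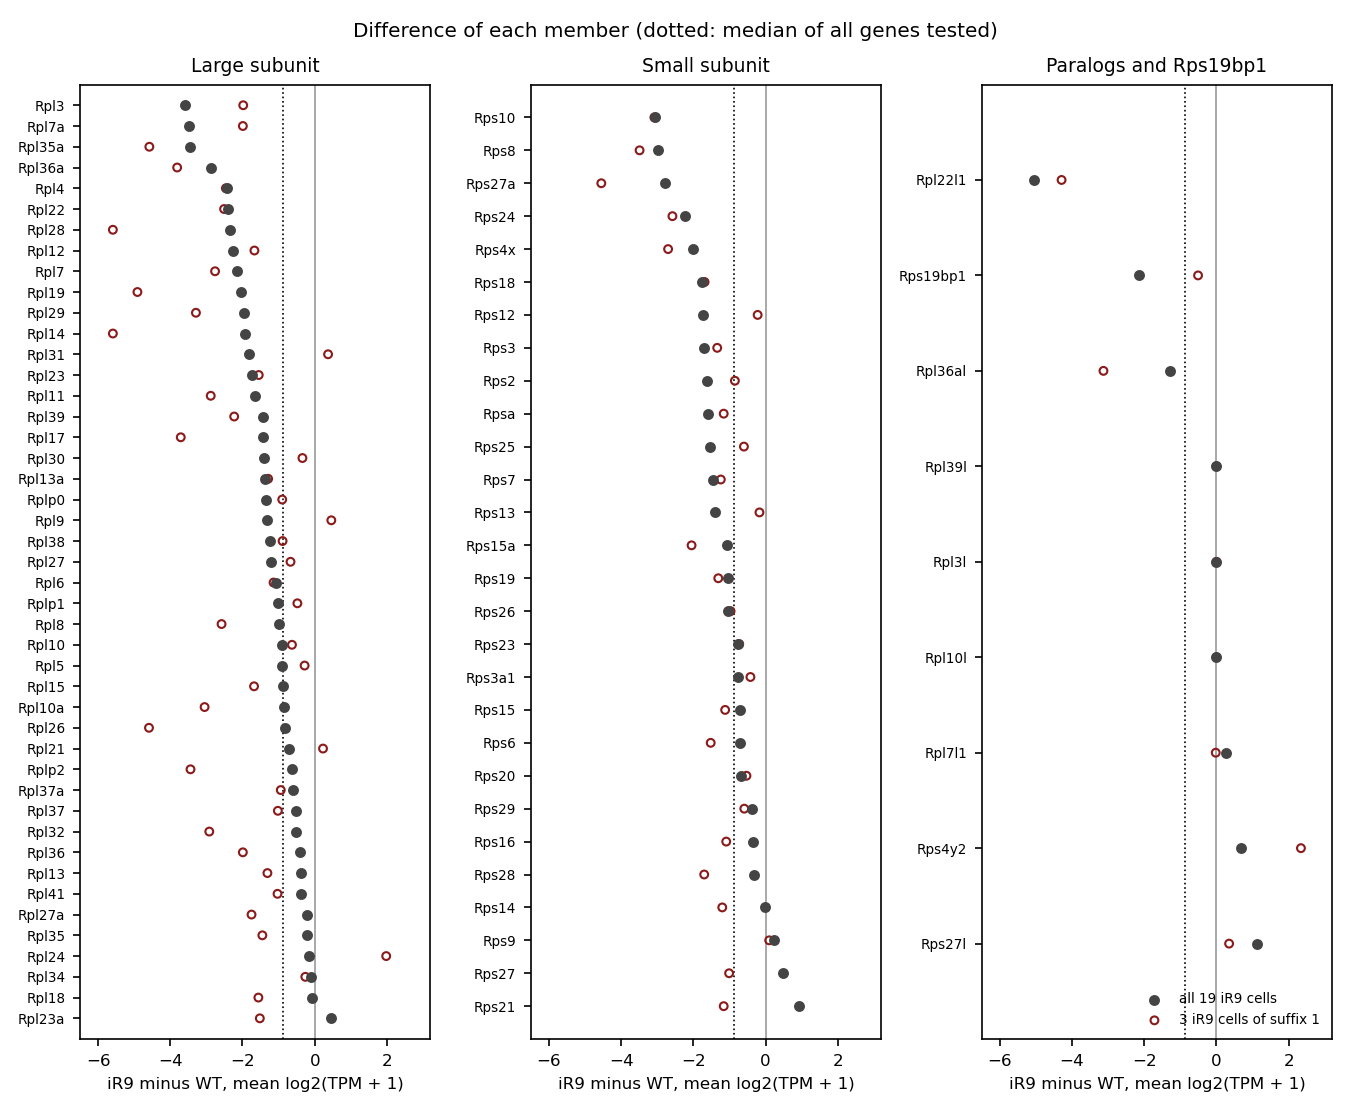
Filled points give the difference in mean log2(TPM + 1), iR9 minus WT, of 82 members over 19 iR9 cells, and open circles the same over the 3 iR9 cells of suffix 1. The dotted line is the median of all 7421 genes (-0.88). Most members lie below 0, Rpl22l1 lies lowest and Rps27l highest, and many open circles lie far from the filled point of the same gene.

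Rpl13, Rpl35 and Rpl32 were among the most abundant large subunit transcripts. Rpl13 (chr8:123102350-123105244, GENCODE M21 on GRCm38, as are all gene positions below) ranged from 32.61 to 10540 TPM over WT cells with a median of 3886, and from 544.2 to 9923 with a median of 2758 over iR9 cells. It was the highest member in 11 WT cells and 2 iR9 cells, while Rpl35 was so in 4 and 7. Rpl35 had medians of 3060 and 3209 TPM and a difference of -0.20 on the log2(TPM + 1) scale. The differences of Rpl13 and Rpl32 were -0.38 and -0.53, each smaller than its SD over cells of either group. All of these were detected in every cell. In the 3 iR9 cells of suffix 1, Rpl13, Rpl35 and Rpl32 differed by -1.31, -1.45 and -2.92. In the other iR9 cells they differed by -0.21, 0.03 and -0.09.

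Among small subunit genes, Rps19, Rps14 and Rps18 were abundant. Rps19, whose human gene is mutated in many patients with Diamond-Blackfan anaemia, had a median of 2890 TPM in WT (range 1219 to 6612) and 1662 in iR9 cells (range 8.63 to 10190), with a difference of -1.05. Rps14 had medians of 2237 and 2546 TPM and a difference of -0.02, which was -1.20 in the 3 iR9 cells of suffix 1 and 0.20 in the others. Rps18 had medians of 3126 and 1326 and a difference of -1.76, with SDs of 2.01 (WT) and 2.79 (iR9). The ranges of all these genes overlapped between the groups.

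The P stalk of the large subunit, which recruits and activates translation factors, consists of Rplp0, Rplp1 and Rplp2. All 3 were detected in all 48 cells. Rplp0 had a median of 2034 TPM in WT (range 2.39 to 4049) and 917.7 in iR9 cells (range 3.27 to 2831), a difference of -1.35. Rplp1 had medians of 1578 and 1028 and a difference of -1.01, and Rplp2 medians of 732.0 and 486.8 and a difference of -0.64. For Rplp2, the 3 iR9 cells of suffix 1 differed by -3.44, and by -4.01 without cell 12. Cell 17 of these had 2.22 TPM.

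Rps6, the small subunit protein phosphorylated by S6 kinase, was present in every cell, at 34.18 to 3555 TPM in WT (median 1051) and 197.4 to 1700 in iR9 cells (median 564.0), a difference of -0.70. Rpl5 and Rpl11, which bind Mdm2 when ribosome assembly is disturbed, had differences of -0.90 and -1.65. Their medians were 385.1 and 220.6 TPM for Rpl5 and 734.4 and 598.4 for Rpl11, in the order WT and iR9. Rpsa, whose product is also known as a laminin receptor, had medians of 669.6 and 435.3 TPM and a difference of -1.59. Rps27a, made as a fusion with ubiquitin, was detected in 27 of 29 WT and 14 of 19 iR9 cells, with medians of 481.7 and 219.3 TPM and a difference of -2.79.

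Rpl22l1 (chr3:28805436-28807424) had the most negative difference of all members, -5.06. It was detected in 22 of 29 WT cells (75.9%, exact Clopper-Pearson 95% interval 56.5 to 89.7%, for counting error alone) and in 4 of 19 iR9 cells (21.1%, interval 6.05 to 45.6%). Its TPM ran from 0 to 2440 with a median of 306.9 in WT cells, and from 0 to 1043 with a median of 0 in iR9 cells. All 22 WT cells with the transcript were above 10 TPM, and 6 WT cells and 14 iR9 cells were listed at 0. The difference was -4.52 among cells with 1514 to 3238 genes and -2.23 by the ratio of mean TPM. Of the 3 iR9 cells of suffix 1, cell 14 had 205.3 TPM and the others 0.

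Rpl22 itself (chr4:152325742-152334071) was low in both groups. It was detected in 23 of 29 WT cells (median 39.9 TPM, range 0 to 343.3) and 6 of 19 iR9 cells (median 0.381, range 0 to 231.9), a difference of -2.41. Both members of the pair were detected in 17 WT cells, Rpl22 alone in 6, Rpl22l1 alone in 5 and neither in 1. Among iR9 cells, 1 had both, 5 had Rpl22 alone, 3 had Rpl22l1 alone and 10 had neither. In 22 WT cells Rpl22l1 had the higher TPM of the pair. The coding sequences of the pair matched at 66.9% of aligned bases and shared 0 stretches of 50 bases, so a read of that length from the coding sequence could be told apart between them.

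Rpl3, Rpl7a and Rpl35a also had strongly negative differences. Rpl3 (chr15:80077791-80091868), which lies close to the peptidyl transferase centre, reached 10 TPM in 24 of 29 WT and 9 of 19 iR9 cells, with medians of 919.6 and 5.65 TPM and a difference of -3.60. Where it was detected, its levels differed by -3.39. In suffix 1 cells 12, 14 and 17, Rpl3 had 1.56, 253.2 and 1198 TPM. Without cell 12, the suffix 1 cells lay above WT by 0.60.

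Rpl7a was listed at 0 in 11 WT cells and 17 iR9 cells, and Rpl35a in 1 and 6. Rpl7a had medians of 49.6 and 0 TPM and a difference of -3.48, and Rpl35a medians of 576.0 and 262.6 TPM and a difference of -3.45. The low level of Rpl7a comes with many near-identical copies: 81.2% of the stretches of 50 bases in its transcript occur in other genes of the annotation, 123 of them, of which 120 are pseudogenes. How the authors' quantification treated such reads is not given in the sources used here. For Rpl3 the share was 85.6%, and for Rpl22l1 57.3%. The highest share among the 77 subunit genes was 98.7% (Rps27). Across the 77 genes the share of such stretches correlated at r = -0.12 with the WT level and at -0.15 with the difference. The number of other genes with such stretches correlated with the WT level at r = -0.32 (rho = -0.21).

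The 5 most positive differences among widely detected members were those of Rps27l, Rps21, Rps27, Rpl23a and Rpl7l1. Rps27l had a difference of 1.13. It was detected in 26 of 29 WT cells (89.7%, interval 72.6 to 97.8%) and in 19 of 19 iR9 cells (interval 82.4 to 100%), with medians of 600.3 TPM (range 0 to 2718) and 1157 TPM (range 4.12 to 3351). The 3 WT cells at 0 carried much of it: where Rps27l was detected, the levels differed by 0.18. The SDs over cells, 3.53 and 2.56, exceeded the difference. With the ratio of mean TPM it was 0.54.

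Rps27l encodes a paralog of Rps27 that is known as a p53 target. Their coding sequences are printed because the values of the pair rest on telling their reads apart. Both are 252 bases long (84 codons), from GENCODE M21 on GRCm38, and capitals mark the 60 bases at which they differ.
Rps27, chr3:90212522-90213651, minus strand: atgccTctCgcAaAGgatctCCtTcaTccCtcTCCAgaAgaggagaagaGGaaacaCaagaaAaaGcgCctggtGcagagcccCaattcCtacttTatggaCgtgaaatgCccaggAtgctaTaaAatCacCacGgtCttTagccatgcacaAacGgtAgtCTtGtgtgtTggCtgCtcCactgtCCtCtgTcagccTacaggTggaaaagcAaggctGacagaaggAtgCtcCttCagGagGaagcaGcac
Rps27l, chr9:66946086-66949516, plus strand: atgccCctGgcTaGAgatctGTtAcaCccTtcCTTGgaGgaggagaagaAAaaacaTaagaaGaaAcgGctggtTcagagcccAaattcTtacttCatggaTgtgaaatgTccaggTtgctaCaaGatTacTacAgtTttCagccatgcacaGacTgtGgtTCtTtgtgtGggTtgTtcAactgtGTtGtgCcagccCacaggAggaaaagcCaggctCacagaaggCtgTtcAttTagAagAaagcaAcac

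The pair matched at 76.2% of bases, with no identical run above 11 bases. Of the 84 codons 53 differed, and 3 of these encode another residue. Rps27 was present in every cell, at 152.3 to 4283 TPM in WT (median 636.4) and 213.6 to 3096 TPM in iR9 cells (median 790.7), a difference of 0.49. In the 3 iR9 cells of suffix 1 the difference was -1.01, and -0.70 without cell 12. Rps27l made up a median of 55.4% of the summed TPM of the pair in WT cells (range 0 to 85.9%) and 51.3% in iR9 cells (range 0.31 to 81.2%), so its part of the pair was not higher in iR9 cells. Of the stretches of 50 bases in the Rps27 transcript, 98.7% also occur in the gene Rps27rt, and its level cannot be separated from that of its copy here. For Rps27l 22.4% occur in other genes.

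Rps21 had medians of 218.6 and 403.9 TPM and a difference of 0.93, and Rpl23a medians of 666.6 and 533.6 TPM and a difference of 0.44. For Rpl23a the medians and the mean logs thus had opposite order, and 3 WT cells but 0 iR9 cells were listed at 0. Both had negative differences in the suffix 1 cells, -1.16 and -1.52, and without cell 12 -1.49 and -1.07. Rpl7l1, a paralog of Rpl7 known from ribosome assembly, had medians of 1.15 and 0.635 TPM and a difference of 0.26.

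Rpl36al, the paralog of Rpl36a, was detected in 27 of 29 WT and 17 of 19 iR9 cells, with medians of 580.7 and 462.0 TPM and a difference of -1.29, which was 0.06 by the ratio of mean TPM. Its part of the summed TPM of the pair was a median of 52.1% in WT and 71.7% in iR9 cells, with ranges from 0 to 100% in both. Rps4y2, which the RefSeq gene table lists as a synonym of Rps4l, was detected in 3 WT and 2 iR9 cells. Rps19bp1 was so in 14 of 29 WT and 4 of 19 iR9 cells, with a difference of -2.15 that was 0.25 in the suffix 1 cells without cell 12.

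In both groups, subunit genes had a higher median correlation with one another across cells than all genes had. The median pairwise r of log2(TPM + 1) among the 77 genes was 0.20 over 29 WT cells, beside 0.093 among all genes, and 0.062 over 19 iR9 cells, beside -0.066. These are descriptions, and genes in 1 cell share a library and a scaling. The share of members was unrelated to the number of genes detected in WT cells (r = 0.09, n = 29) and inversely related in iR9 cells (r = -0.65, n = 19). With the number of proliferation genes above 10 TPM its r was 0.01 in WT (n = 29) and -0.48 in iR9 cells (n = 19). WT cells had a median of 4 such genes and iR9 cells 1.

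Most fixed lists of the wider pathway had a negative median difference, while 81.4% of all genes had a negative difference and 44.5% one of -1 or less. Among subunit genes outside the naming rule were Gnb2l1 (Rack1), a signalling scaffold on the small subunit, and Fau, which is made as a ubiquitin-type fusion. Their differences were -1.75 and -0.30, but 1.18 and -0.16 in the suffix 1 cells, and 1.56 and 0.23 without cell 12. Translation factors and other TOP mRNAs had a negative difference in 37 of 40, with 28 at -1 or less and a median of -1.53. Examples were Eif3d (-4.30), Hnrnpa1 (-3.98) and Eif4a1 (-3.77), an initiation factor subunit, an RNA-binding protein and an RNA helicase of initiation. In the suffix 1 cells 19 of the 40 were at -1 or less and 8 at 1 or more (median -0.91). Without cell 12 the counts were 18 and 13 (median 0.13, beside -0.85 for all genes). Of all 7421 genes, 2920 and 1771 were so in the suffix 1 cells, and 3331 and 2003 without cell 12. Eif4a1 was at 0.13 and 0.73 in these comparisons. Of the nucleolar genes of ribosome biogenesis, 40 of 41 had a negative difference, 29 at -1 or less, with a median of -1.55. In the suffix 1 cells 23 of 41 were at -1 or less and 6 at 1 or more, and without cell 12 these counts were 23 and 10. Npm1, the abundant nucleolar chaperone, had a median of 1043 TPM in WT and 0.746 in iR9 cells and a difference of -5.66. In suffix 1 cells 12, 14 and 17 it had 716.4, 412.7 and 0 TPM. The difference of these cells was -2.62, and -4.34 without cell 12.

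Regulators of ribosomal protein synthesis had a negative difference in 12 of 15, a share near that of all genes, with 9 at -1 or less and a median of -1.26. Trp53 had -4.84, Myc -2.84 and its partner Max -2.65. Myc reached 10 TPM in 10 WT cells, while all 19 iR9 cells were below 10 TPM. Mitochondrial ribosomal protein genes, which encode a separate ribosome, had a median of -0.90, close to that of all genes, with 33 of 76 at -1 or less. Their share of TPM was 1.07% in WT and 1.27% in iR9 cells. The 6 rows of ribosomal protein pseudogenes had a median of -0.03, and Rpl34-ps1 had a difference of 1.09. Their share was 0.0726% in WT and 0.113% in iR9 cells, small beside that of the members, which does not include them.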

How the data were processed

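Single cells were sorted, their polyA RNA was amplified with the Discover-sc WTA Kit V2 and libraries were made with the TruePrep DNA Library Prep Kit V2, per the labels' protocols. The authors deposited TPM per gene symbol and library. The submitters' processing notes list bcl2fastq 2.16.0.10, StringTie 1.3.4, HISAT2 2.1.0 and SAMtools 0.1.19 and the build mm10 without saying what each did. TPM keeps no depth, so no count test was used and low values have no known precision.

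Python 3.11.15, NumPy 2.4.6, pandas 2.3.3, SciPy 1.17.1, Biopython 1.88 and matplotlib 3.10.9 were used. The 27 rows whose symbols had turned into dates were left out of gene values, and shares are of the deposited TPM total. Levels are log2(TPM + 1), which shrinks differences of genes with low levels. With each group 1 sample of cells, no p-value or standard error was computed. Functions were tested on simulated data. Coding sequences are of the APPRIS principal transcript, compared by global alignment. Stretches of 50 bases were looked up in all GENCODE M21 transcripts.

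The members and lists were chosen with earlier results of these data known. Named genes were 8 fixed members, the 4 most abundant of each subunit, the 5 most negative and 5 most positive differences among members in at least 50% of cells of either group, each paralog and Rps19bp1, and up to 3 genes per pathway list. Rpl22 was added as the partner of Rpl22l1, and Rps9 and Rpl36a were named after their values were seen. Some genes that the rule names are not reported here, and counts and sums include them. Alternatives covered the libraries and cells used, member rule, thresholds, pseudocount, scale and filter.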

Additional observations from a re-analysis of the deposited data

How the results depend on the processing

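The share, detection, list median and subunit differences kept their sign under the alternatives tried, apart from the large subunit difference. That was 0.27 in the cells with 1514 to 3238 genes, a range that did not equalize gene numbers between the groups. It was -0.17 without paralogs. Detection at TPM of at least 10 gave -13 members in place of -7. The ratio of mean TPM gave 12 members at -1 or less in place of 46, beside 40.9% and 44.5% of all genes. Whether the members' median lay below or above that of all genes changed with the measure and the cells used. Leaving out each cell in turn gave share differences of -2.26 to -1.82 points, detection differences of -8.0 to -6.5, list medians of -1.25 to -1.02, counts of 42 to 51 and large subunit differences of -0.93 to -0.70. The list median was -1.36 with a pseudocount of 0.1 and -0.86 with 10, where that of all genes was -1.26 and -0.43. Of 377 values of single named members, 20 had the opposite sign to the reported difference. Of these, 17 belonged to 7 members whose reported difference was below 1 in size (Rpl5, Rpl7l1, Rpl23a, Rpl35, Rps14, Rps21 and Rps27). The 3 others were those of Rpl36al (0.06, ratio of mean TPM) and, in the suffix 1 cells without cell 12, of Rpl3 (0.60) and Rps19bp1 (0.25). The cause was not tested. This last alternative, and leaving out iR9 cell 12 of suffixes 2 and 3, were chosen after seeing the data. Without that cell the share difference was -1.91. No paired analysis was possible because the labels pair no WT cell with an iR9 cell and no test was made. Depth is unknown, and with no animals named the spread is over cells.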
